A study of Mus musculus with 18 samples.

Results

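Avp, Oxt, Nkx2-1, Rax, Col25a1, Scn7a and Lhx2 are genes of the posterior lobe of the pituitary, and their probe sets were chosen by gene symbol from a microarray table. Each gene had exactly 1 probe set, so the 7 genes are 7 of 19572 probe sets with a gene symbol and of 22206 in all. The arrays were mouse Clariom S arrays of skin and of pituitary, 9 of each tissue and 18 in all. In each tissue there were 3 wild-type samples, 3 with a knockout of the long noncoding RNA MIR205HG (labelled lncKO) and 3 with a knockout of miR-205, a microRNA (labelled here miR-205 KO). All groups are labelled as untreated C57BL/6 females of 5 to 6 weeks. The sources used here do not say how each allele was made, in which cells it is deleted or whether animals were pooled. The extraction text speaks of ear for all 18 samples, including those labelled pituitary. Samples keep their label numbers, with skin wild type 1 to 3, lncKO 4 to 6 and miR-205 KO 7 to 9, and pituitary wild type 10 to 12, lncKO 13 to 15 and miR-205 KO 16 to 18.

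The posterior lobe is the neural part of the pituitary. It holds the axon endings of hypothalamic magnocellular neurons, which release vasopressin (encoded by Avp) and oxytocin (Oxt) into the blood, and glial cells called pituicytes. The cell bodies that make most of the hormone mRNA lie in the hypothalamus, outside the gland. Nkx2-1, Rax and Lhx2 encode transcription factors of the ventral diencephalon from which the lobe grows. Scn7a encodes a sodium-sensing channel of glia and Col25a1 a transmembrane collagen, and both are known as pituicyte transcripts. Outside the pituitary, Lhx2 also acts in hair follicle stem cells and Scn7a is expressed in Schwann cells.

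The microRNA deleted in miR-205 KO mice has the following RefSeq mature sequence (GRCm38.p6, chr1:193507503-193507524, minus strand), shown because its loss defines a group. Capitals mark the seed, bases 2 to 8.
mmu-miR-205-5p: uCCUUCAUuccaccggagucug

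Avp and Oxt are direct neighbours in the RefSeq gene table, and their starts are read from opposite strands. Promoter windows on the chromosome of Rax were left out of the search. The other 6 of the 7 genes had a window in the RefSeq table used (250 bases before to 50 bases from the annotated start). The windows of Oxt (GRCm38.p6, chr2:130575919-130576218, plus strand) and Avp (chr2:130582539-130582838, minus strand) are shown because the main differences below are in these genes. Capitals mark every match, on either strand, to ATAAA (the TATA-like element), GGTCA (a nuclear receptor half-site, read TGACC from the opposite strand) and CACGTG (an E-box), and no marked matches overlap.
Oxt: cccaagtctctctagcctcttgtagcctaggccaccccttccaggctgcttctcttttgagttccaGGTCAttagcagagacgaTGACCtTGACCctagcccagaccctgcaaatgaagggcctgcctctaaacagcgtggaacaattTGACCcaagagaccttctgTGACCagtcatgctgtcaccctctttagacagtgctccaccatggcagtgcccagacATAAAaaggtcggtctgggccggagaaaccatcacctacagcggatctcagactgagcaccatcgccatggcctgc
Avp: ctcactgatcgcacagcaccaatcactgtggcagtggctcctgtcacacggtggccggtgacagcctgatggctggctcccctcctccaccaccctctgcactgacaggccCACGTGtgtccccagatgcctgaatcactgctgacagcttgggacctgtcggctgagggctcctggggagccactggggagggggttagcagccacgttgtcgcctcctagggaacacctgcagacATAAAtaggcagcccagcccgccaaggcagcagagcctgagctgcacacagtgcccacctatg
The Oxt window held 5 matches to GGTCA, beginning 184, 166, 160, 102 and 83 bases before the start, and 1 to ATAAA, 26 bases before it. The Avp window held 0 matches to GGTCA, 1 to CACGTG at 139 bases and 1 to ATAAA at 13 bases before the start. Without the chromosome of Rax, 32851 promoter windows of this length were searched. Of these, 40.0% held ATAAA, 40.5% held GGTCA and 7.15% held CACGTG at least once. The share of windows with 5 matches to GGTCA was not counted. The homeodomain core TAATTA, which factors of the Lhx2 and Rax type bind, was in 5.29% of the windows searched. It was in 0 of those of Oxt, Avp, Scn7a, Col25a1, Nkx2-1 and Lhx2. A match describes the letters and shows no binding.

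The deposited values are intensities on a linear scale, read here as log2 intensities. An intensity of 16 serves below as the mark of a low reading, and 22.8% to 25.3% of an array's probe sets lay at or under it. A gene is said to have risen or fallen where limma gave an adjusted p under 0.05 over all 19572 probe sets. Whether replicates are different animals is not labelled, so p-values measure only the spread among these samples, which may be technical. Gh, the growth hormone gene, read 817571 to 966812 on the pituitary arrays, and the keratin gene Krt5 read 64494 to 88378 in skin and 7 to 14 in pituitary, as the tissue labels say. No probe set named for MIR205HG or miR-205 was found, so the genotype labels were not checked. The Y chromosome genes Kdm5d, Eif2s3y and Uty read 172 to 2339 on the 9 pituitary arrays and 5 to 13 on the 9 skin arrays, against the label of female for the pituitary. All 9 pituitary arrays show this, so any tissue difference below is also a difference in Y chromosome signal. Within pituitary, Kdm5d and Uty overlapped between lncKO and wild type, whereas Eif2s3y fell by 1.08 in lncKO (SE 0.19, limma, adjusted p = 0.0283), and its part in the pituitary results was not tested.

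In wild-type mice, 4 of the 7 genes were higher in pituitary than in skin, namely Scn7a, Rax, Avp and Col25a1, and 0 were lower. Over all probe sets 25.7% were higher in this comparison and 26.4% lower. Oxt, Lhx2 and Nkx2-1 did not pass. Whole pituitary was measured, so the comparison does not show which lobe a signal came from. The plot of the genes by array gives every reading.

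**Figure D1:**
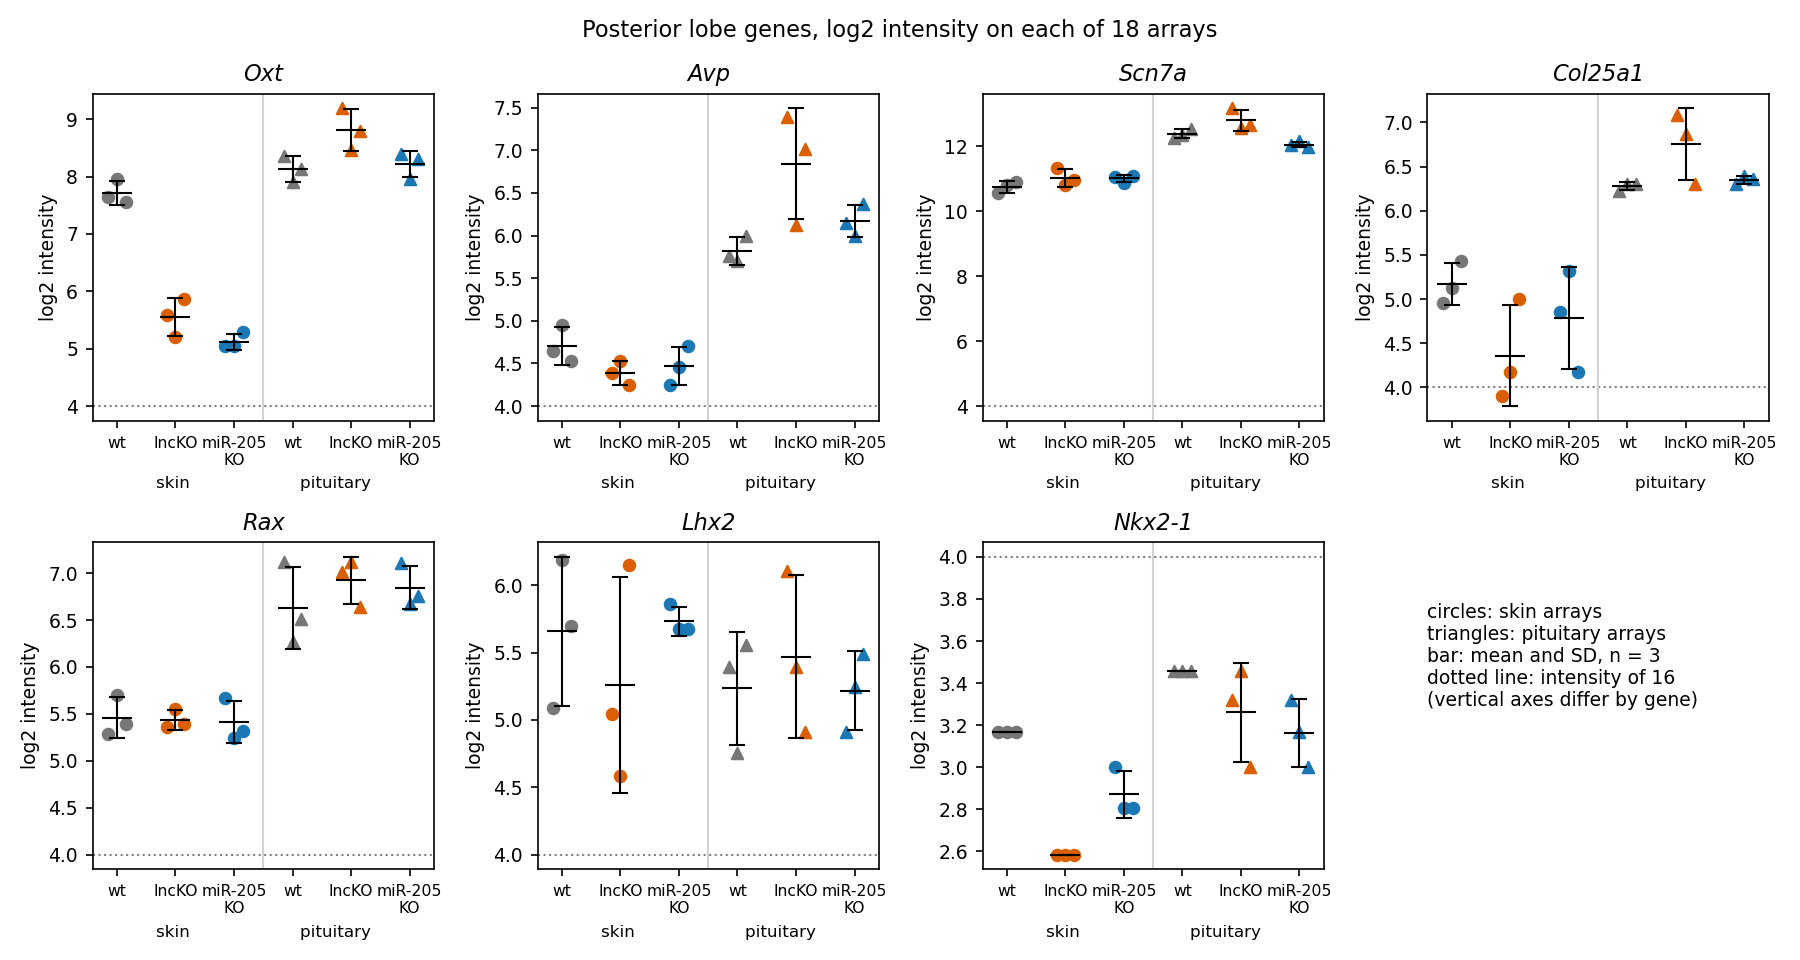
Log2 intensity (vertical axis, scaled separately for each gene) of the 7 genes on each of 18 arrays, in 3 skin and 3 pituitary groups (horizontal axis), with mean and SD of n = 3; the dotted line marks an intensity of 16. Oxt in skin stands at 188 to 249 in wild type and 33 to 58 in both knockouts, and Nkx2-1 lies below the dotted line on all 18 arrays.

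Oxt, the oxytocin precursor gene, was the only one of the 7 genes that passed the test between a knockout and wild type. In skin it read 199, 249 and 188 in wild type 1 to 3. In lncKO skin it read 48, 37 and 58, and in miR-205 KO skin 33, 33 and 39. All 6 knockout arrays lay far below the lowest wild-type array, and the groups of wild type and knockout did not overlap. Oxt fell by 2.17 on the log2 scale (SE 0.23, limma, adjusted p = 1.74e-04) in lncKO skin, to 0.223 of the wild-type level. In miR-205 KO skin it fell by 2.59 (SE 0.23, adjusted p = 7.16e-05), to 0.166 of the wild-type level. Both comparisons use the same wild-type arrays.

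Among all probe sets, 9.17% fell in lncKO skin and 10.0% in miR-205 KO skin, so a fall was common there, and Oxt was 1 of 7 members called in each comparison. By p the Oxt change ranked 40 and 11 among the 19572 probe sets. Oxt differed between the knockouts themselves in skin by 0.43 (SE 0.23, 95% interval -0.07 to 0.92, adjusted p = 1), and the lncKO range of 37 to 58 overlapped the 33 to 39 of miR-205 KO. In that comparison limma called 0 probe sets (0%), with 637 (3.25%) at an unadjusted p under 0.05, 0 of them members.

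The gene next to Oxt on the side away from Avp is Mrps26, which encodes a mitochondrial ribosomal protein and was chosen after its values were seen. It fell by 0.76 in lncKO skin (SE 0.22, adjusted p = 0.0343), from 497 to 614 in wild type to 282 to 388. In miR-205 KO skin, at 324 to 430, its change of -0.53 (SE 0.22) did not pass (adjusted p = 0.113). Lzts3, the nearest measured protein-coding gene beyond Avp, gave 0.18 and 0.57 (SE 0.28 each) and did not pass (adjusted p = 0.703 and 0.174). In skin the neighbours therefore showed smaller differences than Oxt or none that passed. In pituitary neither neighbour passed against wild type. There Lzts3 gave 0.90 in miR-205 KO (SE 0.29, limma, adjusted p = 0.491), beside 0.09 for Oxt, and 0.19 in lncKO, beside 0.68 for Oxt.

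Several pan-neuronal genes fell in knockout skin, as Oxt did, while the magnocellular and the Schwann cell and nerve lists gave no calls. Of 8 listed pan-neuronal and axon genes, 5 fell in lncKO skin and 6 in miR-205 KO skin, where 9.17% and 10.0% of all probe sets fell. Their median log2 fold change was -1.01 and -1.003, beside -0.07 for all probe sets in both. Nefl, which encodes the light neurofilament chain, read 29, 32 and 38 in wild type and 7 to 10 in the 6 knockout arrays. Tubb3, a neuronal tubulin gene, read 47, 38 and 66 in wild type and 19 to 24 in the knockouts. Tubb3 fell by 1.21 and fell by 1.16 in lncKO and miR-205 KO skin (SE 0.24 each, adjusted p = 0.00617 and 0.00682). Nefl passed in both (adjusted p = 1.54e-04 and 2.82e-04), but its knockout readings, like those of Snap25, lie under 16, so no size is given. Gap43, a growth cone gene of the same list, read 124 to 229 in wild type, 210 to 256 in lncKO and 126 to 163 in miR-205 KO and did not pass. Of 10 magnocellular neuron genes 0 passed in either knockout skin (medians 0.13 and 0.22), and of 6 Schwann cell and nerve genes 0 passed (medians 0.05 and -0.16). The magnocellular genes read low in skin, with a mean log2 intensity of 4.51 to 4.79 per array. Of these, Gal and Pou3f2 were at or under 16 on all 9 skin arrays, so a fall in this list could be missed. The summed intensity of the 8 pan-neuronal and axon genes was 4977 to 9259 in wild type, 2800 to 3617 in lncKO and 2015 to 3233 in miR-205 KO skin. A large part of these sums was Map2, which alone read 2691 to 4265, 1852 to 2253 and 1178 to 2539. In whole skin, fewer cells of a type and less RNA per cell cannot be told apart, and the part of neuronal RNA in the Oxt difference was not tested.

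Of 6 anterior lobe hormone genes, 1 fell and 1 rose in lncKO skin, and 2 fell and 1 rose in miR-205 KO skin. Of all probe sets, 9.17% fell and 6.21% rose in lncKO skin, and 10.0% fell and 6.79% rose in miR-205 KO skin. Tshb, the thyrotropin subunit gene, rose by 1.34 in lncKO (SE 0.26, adjusted p = 0.00579) and by 1.33 in miR-205 KO (SE 0.26, adjusted p = 0.00554), from 16 to 24 in wild type to 37 to 63. Gh read 2501 in wild type 1, 29 and 76 in wild type 2 and 3, and 7 to 15 in the 6 knockout arrays. Prl, the prolactin gene, read 72, 20 and 14 in wild type and 7 to 13 in the knockouts. Gh passed in both knockouts and Prl in miR-205 KO alone, with knockout readings under 16. Oxt read 199, 249 and 188 on the same wild-type arrays. Without wild type 1 the Oxt change was -2.21 in lncKO and -2.63 in miR-205 KO skin. All 3 wild-type arrays read above the knockouts for Gh, and the part of pituitary hormone RNA in the Oxt difference was not tested. The map of skin differences sets these genes side by side.

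**Figure D2:**
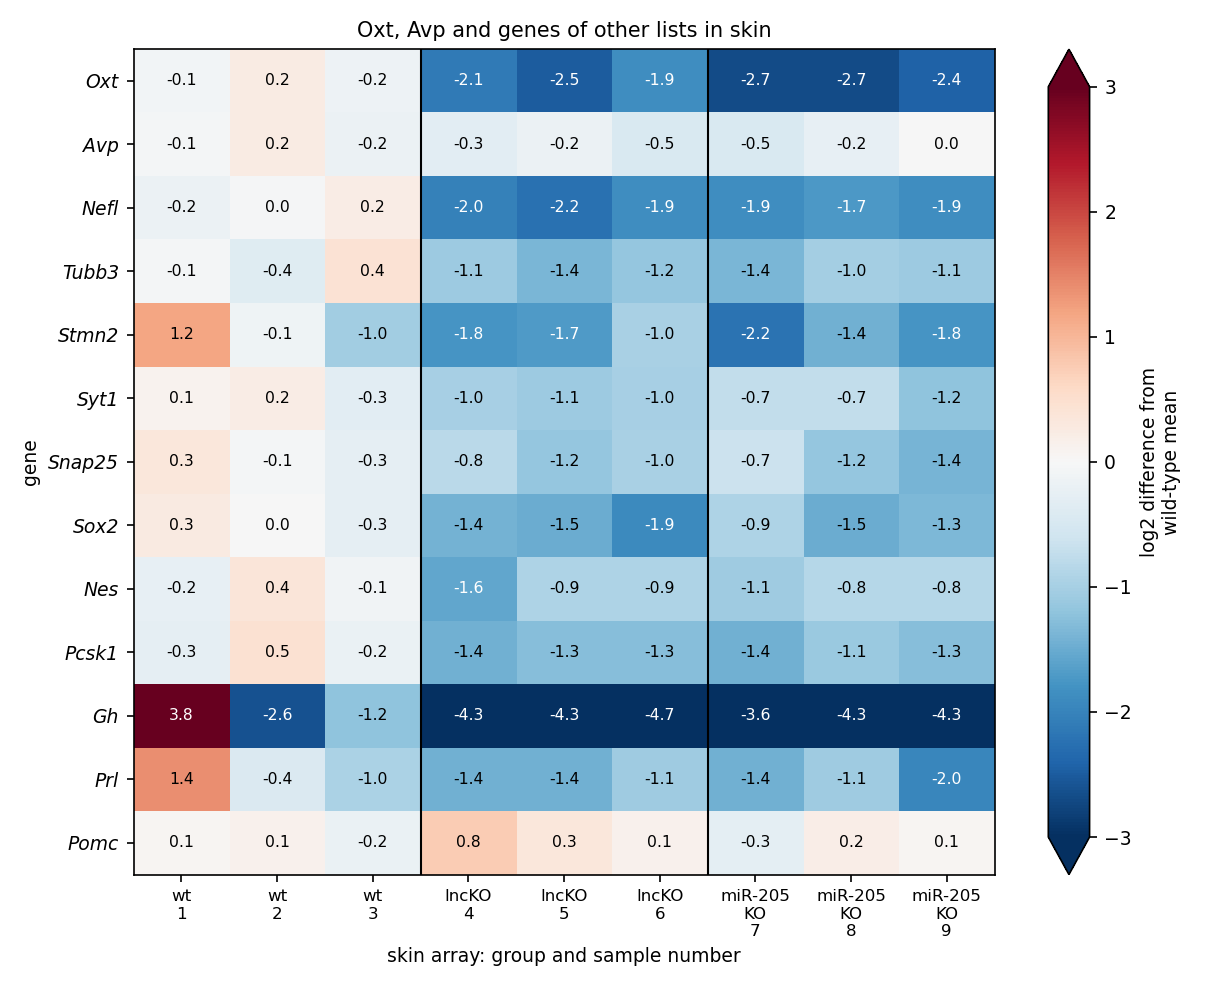
Log2 difference of each skin array from the wild-type mean (colour and printed value; colours stop at 3 in either direction) for Oxt, Avp and genes of other lists (rows) in arrays 1 to 9 (columns); the genes other than Oxt and Avp were picked after their values were seen. Oxt and Nefl are lower in all 6 knockout arrays, whereas Gh is far higher in wild type 1 than in wild type 2 and 3.

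In pituitary, Oxt read 329, 239 and 282 in wild type, 584, 353 and 446 in lncKO and 335, 249 and 318 in miR-205 KO. All 3 lncKO arrays lay above all arrays of the other groups, and miR-205 KO overlapped wild type. The difference of lncKO from wild type was 0.68 (SE 0.22, 95% interval 0.21 to 1.16) and did not pass (limma, adjusted p = 0.208). That of miR-205 KO was 0.09 (SE 0.22, interval -0.39 to 0.56, adjusted p = 0.971). In wild types, pituitary and skin gave overlapping ranges for Oxt, with a log2 difference of 0.42 (SE 0.22, adjusted p = 0.130). From high to low, the group means ran lncKO, miR-205 KO and wild-type pituitary, then wild-type, lncKO and miR-205 KO skin. Ranges separated the first from the second group and wild-type from lncKO skin, and the other neighbours in this order overlapped.

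Avp, the vasopressin precursor gene, had its highest readings in lncKO pituitary as well. It read 54, 52 and 64 in wild-type pituitary, 168, 70 and 129 in lncKO and 71, 64 and 83 in miR-205 KO. The lncKO arrays all lay above wild type, but lncKO 14 lay within the range of miR-205 KO. The log2 difference of lncKO from wild type was 1.03 (SE 0.27, 95% interval 0.43 to 1.62) and did not pass (adjusted p = 0.125). Over the alternatives the adjusted p ran from 0.0304 to 0.368. Without lncKO 14 the difference was 1.38 and passed (adjusted p = 0.0304), and without lncKO 13 it was 0.75 (adjusted p = 0.368). For miR-205 KO the difference was 0.36 (SE 0.27, interval -0.24 to 0.95, adjusted p = 0.844).

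In skin, Avp was near the low end throughout, at 23 to 31 in wild type, 19 to 23 in lncKO and 19 to 26 in miR-205 KO. Neither knockout difference passed (-0.32 and -0.24, SE 0.22 each, adjusted p = 0.343 and 0.487). Wild-type pituitary exceeded wild-type skin by 1.11 (SE 0.25, adjusted p = 7.76e-04), and all 9 pituitary arrays lay above all 9 skin arrays. In the order of the 6 group means, wild-type pituitary and wild-type skin were neighbours without overlap, and the other neighbours overlapped.

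The effect of lncKO on Oxt and Avp, and that of miR-205 KO on Oxt, differed between the tissues. For Oxt the lncKO effect in pituitary exceeded that in skin by 2.85 (SE 0.32, limma interaction, adjusted p = 2.77e-05), and the miR-205 KO effect by 2.68 (SE 0.32, adjusted p = 6.5e-05). For Avp the lncKO effect exceeded that in skin by 1.35 (SE 0.36, adjusted p = 0.0223). For miR-205 KO the Avp difference of 0.59 (SE 0.36) did not pass (adjusted p = 0.307). The lncKO difference of Col25a1 was 1.29 (SE 0.41) and narrowly did not pass (adjusted p = 0.0522). It passed with the filter (0.0488) and without skin wild type 1 (0.0484), skin lncKO 6 (0.0156) or pituitary lncKO 15 (0.0355). The Avp call for lncKO was lost without skin wild type 2 (adjusted p = 0.0516), pituitary wild type 11 (0.0512), lncKO 13 (0.0643) or lncKO 15 (0.0560). In the main fit 2 of 7 members were called higher for lncKO and 1 of 7 for miR-205 KO, where 5.88% and 6.26% of all probe sets were. The median of all probe sets was itself 0.08 above 0 in both interactions.

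Scn7a, the sodium-sensing channel gene of glia, had the largest tissue difference of the 7 genes. It read 4936, 5242 and 5987 in wild-type pituitary and 1496, 1806 and 1909 in wild-type skin. The log2 difference was 1.64 (SE 0.20, adjusted p = 5.33e-07), and all pituitary arrays lay above all skin arrays. In lncKO pituitary it read 9206, 6077 and 6498, above the wild-type range, and in miR-205 KO pituitary 4213, 4552 and 4018, below it. The ranges of the 3 pituitary genotypes thus did not overlap, in the order lncKO, wild type and miR-205 KO.

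None of these Scn7a differences passed. LncKO differed from wild type by 0.41 (SE 0.19, adjusted p = 0.404, and 0.23 without lncKO 13), miR-205 KO by -0.34 (SE 0.19, adjusted p = 0.748) and lncKO from miR-205 KO by 0.75 (SE 0.19, adjusted p = 0.141). With a variance trend and robust estimation the last of these passed (adjusted p = 0.0339). In knockout skin, at 1779 to 2603 in lncKO and 1874 to 2185 in miR-205 KO, Scn7a gave 0.28 and 0.25 (SE 0.22 each, adjusted p = 0.422 and 0.458), and its 3 skin groups overlapped.

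Col25a1, the transmembrane collagen gene, read 75, 79 and 79 in wild-type pituitary and 31, 35 and 43 in wild-type skin, a log2 difference of 1.11 (SE 0.29, adjusted p = 0.00257). In lncKO pituitary it read 136, 117 and 79, so that lncKO 15 was level with wild type while the other two were higher. The difference of 0.48 (SE 0.20, interval 0.04 to 0.91) did not pass (adjusted p = 0.357), and it was 0.31 without lncKO 13. MiR-205 KO pituitary read 79, 84 and 82 (difference 0.07, SE 0.20, adjusted p = 0.972). In skin Col25a1 read 15, 18 and 32 in lncKO and 29, 40 and 18 in miR-205 KO, with changes of -0.81 and -0.39 (SE 0.33 each, adjusted p = 0.115 and 0.451). Without lncKO 6 the change in lncKO skin was -1.13 and passed (adjusted p = 0.0476). Pituitary and skin did not overlap in any genotype, and within each tissue neighbouring groups did.

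Rax, a homeodomain factor gene of the hypothalamus and pituicytes, separated the tissues but not the genotypes. It read 139, 77 and 91 in wild-type pituitary against 39, 52 and 42 in wild-type skin, a difference of 1.17 (SE 0.22, adjusted p = 1.51e-04). LncKO pituitary read 129, 139 and 100 and miR-205 KO pituitary 138, 102 and 108, both within or at the edge of the wild-type range. The differences from wild type were 0.29 and 0.21 (SE 0.24 each, adjusted p = 0.671 and 0.910). In skin both knockouts lay at 38 to 51, with changes of -0.02 and -0.05 (SE 0.22 each, adjusted p = 0.955 and 0.910), whose sign turned with quantile normalization and with median centring.

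Lhx2, a LIM homeodomain factor gene, did not mark the pituitary on these arrays. It read 27 to 47 in wild-type pituitary, 30 to 69 in lncKO and 30 to 45 in miR-205 KO, against 34 to 73, 24 to 71 and 51 to 58 in the same genotypes of skin. All 6 groups overlapped with their neighbours in the order of the means. The wild-type difference between pituitary and skin was -0.43 (SE 0.36, interval -1.18 to 0.33, adjusted p = 0.356). Knockout differences lay between -0.40 and 0.24 (SE 0.30 in pituitary and 0.37 in skin, adjusted p = 0.490 to 0.997).

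Nkx2-1, a homeodomain factor gene also known from thyroid and lung, read 8 to 11 on the pituitary arrays and 6 to 9 on the skin arrays. All 18 values are under 16, so a defining transcription factor of the lobe was not read above the low end in the tissue labelled pituitary. All 3 wild-type skin arrays read 9 and all 3 lncKO skin arrays 6. These whole-number steps at the low end did not pass (change -0.58, SE 0.19, adjusted p = 0.0563). They passed with the variance trend (adjusted p = 0.0299) and in a fit of all 18 arrays (0.0175), while with a floor at 16 every Nkx2-1 difference is 0.

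In lncKO pituitary most of the 7 genes lay above wild type, and 0 passed. Limma called 0 of 7, where 0.700% of all probe sets were called, and 3 of 7 (Avp, Oxt and Col25a1) had an unadjusted p under 0.05, where 12.5% of all probe sets had. Avp, Oxt and Scn7a did not overlap wild type and were higher, as were 8.84% of all probe sets. The median log2 difference was 0.41, beside 0.01 for all probe sets, with 6 genes above 0 and Nkx2-1 below. Lhx2 turned to -0.08 without lncKO 13 and to -0.004 without wild type 11. Medians of the other lists ran from -0.04 (Y chromosome genes) to 0.46 (endothelial genes) and 0.49 (1 blood gene), so a rise was not particular to the members. In miR-205 KO pituitary limma called 0 of 7 as well (0.107% of all probe sets), and 0 had an unadjusted p under 0.05 (7.47% of all). The median there was 0.07, beside 0.01.

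Set against each other, lncKO pituitary exceeded miR-205 KO pituitary in all 7 genes, with a median of 0.40 beside -0.01 for all probe sets. Of all probe sets 48.8% were above 0. Medians of the other lists ran from -0.16 (myelin and oligodendrocyte genes) to 0.57 (intermediate lobe melanotroph genes). The sign turned for Lhx2 without lncKO 13 (-0.07), for Rax without lncKO 14 (-0.02) or miR-205 KO 17 (-0.007), and for Nkx2-1, read under 16 throughout, without lncKO 14 (-0.003). Limma called 0 of 7 (0.291% of all), and Avp, Oxt and Scn7a had an unadjusted p under 0.05 (11.1% of all). The comparisons with wild type share its arrays, and this one shares the knockout arrays with them. The plot of effects gives the intervals.

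**Figure D3:**
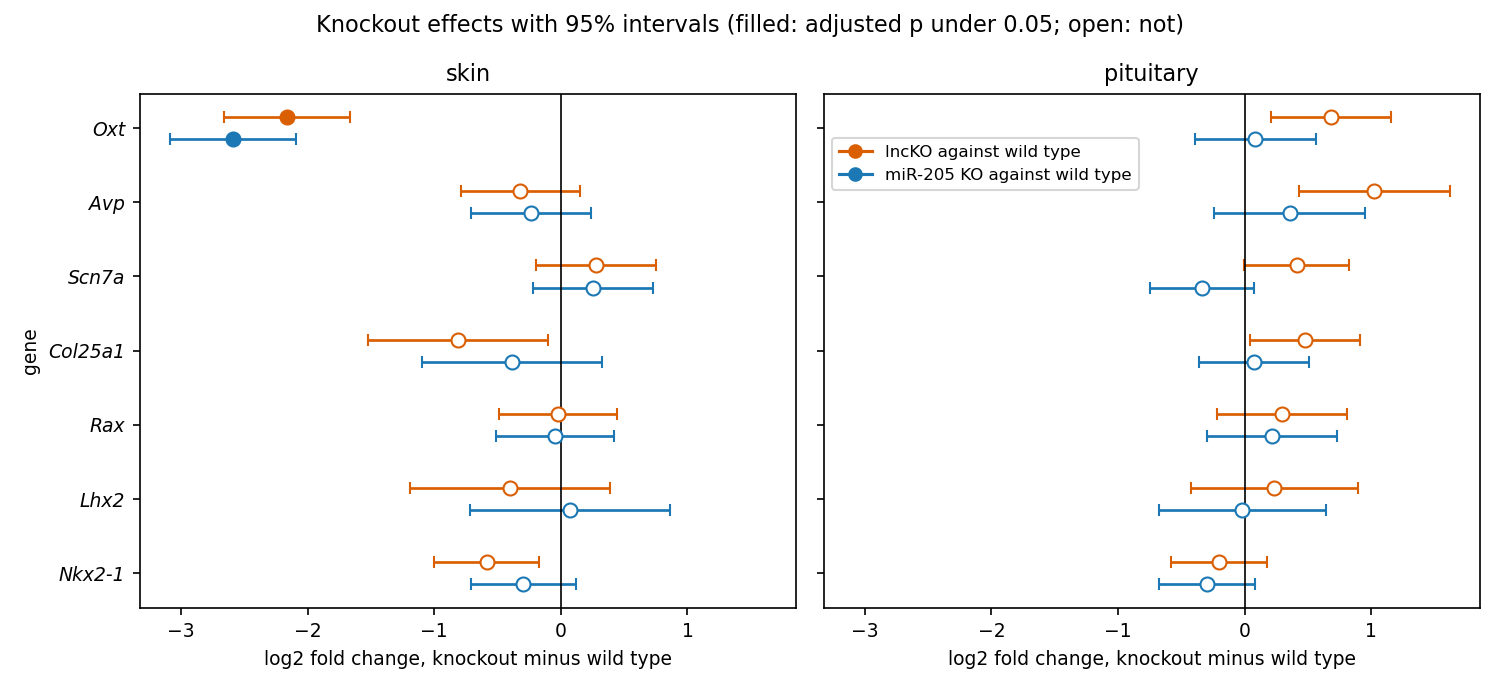
Log2 fold change of each knockout against wild type (horizontal axis) for the 7 genes (vertical axis) in skin and pituitary, with 95% intervals from limma, n = 3 arrays per group; filled points passed at an adjusted p under 0.05. Only the Oxt changes in skin are filled, at -2.17 and -2.59, and of the open points the intervals of Avp, Oxt and Col25a1 in lncKO pituitary lie above 0 and those of Col25a1 and Nkx2-1 in lncKO skin below it.

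Sample lncKO 13 carried the highest pituitary readings of Avp, Oxt, Scn7a, Lhx2 and, with 136, Col25a1. It also had the highest readings of Sst (446, against 35 to 280 on the other 8 arrays), which encodes somatostatin, and of Cck (873, against 56 to 435), which encodes cholecystokinin, both made by brain neurons. Sst is from the list of hypothalamic neuron genes and Cck from the list of magnocellular neuron genes. The second highest Sst and Cck were in miR-205 KO 17 (280 and 435), where Avp read 64 and Oxt 249, within or at the edge of the wild-type ranges. The 8 hypothalamic neuron genes measured summed to 156 to 260 in wild type, 220 to 594 in lncKO and 212 to 421 in miR-205 KO pituitary. Of the 8, 0 passed in lncKO or miR-205 KO, where 0.700% and 0.107% of all probe sets passed. Among the 8 genes, Ghrh, Trh and Gnrh1, which mark other hypothalamic neurons, read 9 to 23 on all 9 arrays. Others of the same list read higher or alike, with Crh at 19 to 41, Npy at 16 to 46 and Hcrt at 15 to 21. The part of neighbouring brain tissue in the Avp and Oxt readings was not tested. The genes named here other than members were chosen from their lists after their values were seen.

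Other genes of the lobe gave 1 call. Of 10 further pituicyte genes measured, Cd59a, which encodes an inhibitor of complement, rose in lncKO pituitary and 0 fell. Over all probe sets 0.342% rose and 0.358% fell in that comparison. Cd59a read 8976, 5794 and 6757 in wild type, 15369, 13215 and 16299 in lncKO and 8198, 7443 and 8388 in miR-205 KO, and rose by 1.08 in lncKO (SE 0.19, adjusted p = 0.0275). The list's median in lncKO was 0.21, with 6 genes above 0 and 4 below. Among those below, Dio2 read 4564 to 5550 in wild type and 3553 to 4647 in lncKO, and Nes 118 to 154 and 82 to 135. The list's summed intensity was 11658 to 14850 in wild type, 18834 to 21718 in lncKO and 11574 to 12928 in miR-205 KO, mostly from Cd59a. Cd59a is not particular to the lobe, and read 5368 to 12674 in skin. Of 8 astrocyte genes 0 passed in lncKO or miR-205 KO pituitary, where 0.700% and 0.107% of all probe sets passed. In lncKO 7 of them lay above 0 and 1 below. Gfap, the astrocyte filament gene, read 22 to 45 in wild type, 33 to 77 in lncKO and 44 to 59 in miR-205 KO. Aldh1l1 of the same list was lower in lncKO, at 49 to 65, against 90 to 109 in wild type and 82 to 171 in miR-205 KO.

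Among 11 transcription factors of the hypothalamus and infundibulum, Sox2 alone passed in lncKO pituitary, where 0.700% of all probe sets passed. Sox2, a factor of progenitor cells and of pituicytes, rose by 1.07 (SE 0.18, adjusted p = 0.0204), from 1605 to 1815 in wild type to 2901 to 4036. In miR-205 KO pituitary 0 of the 11 passed, where 0.107% of all probe sets passed. Of 5 genes of intermediate lobe melanotrophs, which lie against the posterior lobe, Tbx19 rose in lncKO pituitary by 1.69 (SE 0.27, adjusted p = 0.0171), from 3068 to 6570 to 12048 to 16730. Pomc, the hormone precursor gene, and Pax7, the factor gene that defines melanotrophs, gave 0.12 and 0.13 in lncKO and did not pass (adjusted p = 0.900 and 0.888). Oacyl read 47538 to 169834 in wild type and 54138 to 149138 in lncKO, and Drd2 6015 to 11000 and 7587 to 8965. Neither passed. Whole pituitary was measured, so the Tbx19 difference is not assigned to a lobe. Cdh19, a cadherin gene of Schwann cells, was the 1 of 6 measured Schwann cell and nerve genes that differed between the knockouts, at 192 to 228 in lncKO and 81 to 97 in miR-205 KO (difference 1.17, SE 0.16, adjusted p = 0.0142). Between the knockouts 0.291% of all probe sets passed. The map of pituitary differences shows these genes array by array.

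**Figure D4:**
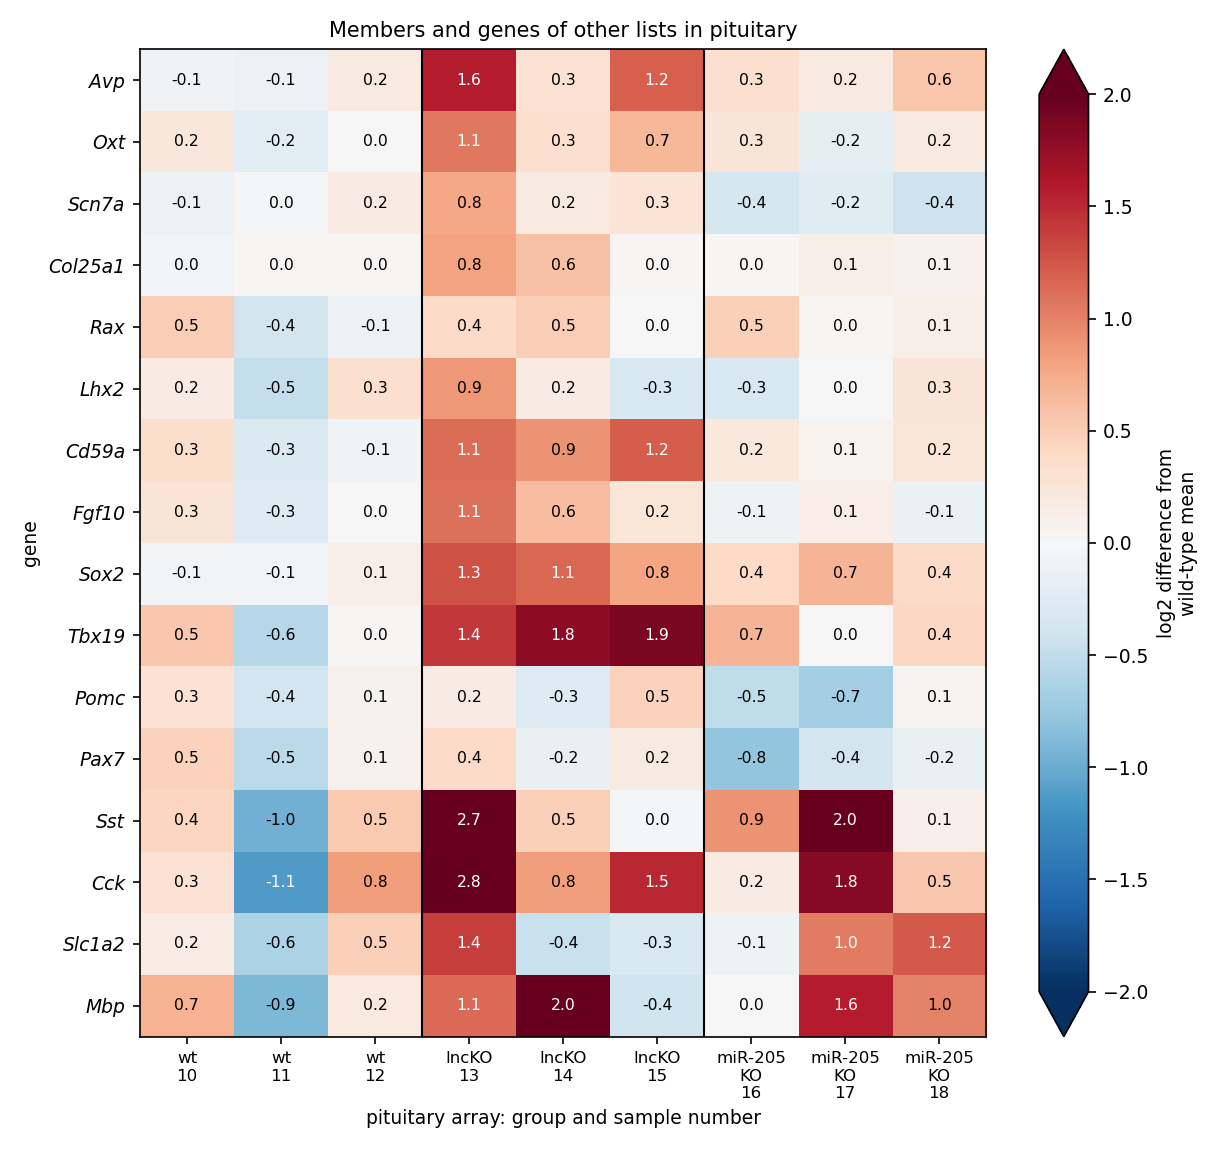
Log2 difference of each pituitary array from the wild-type mean (colour and printed value; colours stop at 2 in either direction) for members and genes of other lists (rows) in arrays 10 to 18 (columns); the genes other than members were partly picked after their values were seen. Cd59a, Sox2 and Tbx19 are above the wild-type mean in all 3 lncKO arrays and, by less, in all 3 miR-205 KO arrays. Sst and Cck are highest in lncKO 13 and miR-205 KO 17.

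Of the 4 receptor genes of both hormones, 0 passed in lncKO or miR-205 KO pituitary, where 0.700% and 0.107% of all probe sets passed. Avpr1b, the vasopressin receptor of corticotrophs, read 9 to 15 in wild type, 14 to 25 in lncKO and 18 to 28 in miR-205 KO. Oxtr, the oxytocin receptor gene, read 63 to 100, 65 to 163 and 78 to 119. In skin, Avpr1a, a vasopressin receptor of vessels, rose in miR-205 KO by 0.97 (SE 0.28, adjusted p = 0.0340), from 819 to 1637 to 1930 to 2212. Its change in lncKO skin was 0.89 and did not pass (adjusted p = 0.0504). In pituitary Avpr1a read 8 to 10 on all 9 arrays. Of 10 genes of magnocellular neurons and of 5 prohormone processing genes measured, 0 passed in either pituitary knockout.

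Across the 9 pituitary arrays, the members were alike to different degrees. Pearson's r of the log2 intensities was 0.90 between Avp and Oxt, 0.72 between Oxt and Scn7a and between Col25a1 and Scn7a, and 0.06 between Rax and Scn7a. Among 12440 probe sets with a mean log2 intensity above 5, the non-member most like Oxt was Nfia (r = 0.97), a factor gene of glia, and that most like Avp was Marf1 (0.97). Those most like Scn7a, Col25a1, Rax and Lhx2 were Cd9 (0.96), Ndufaf6 (0.96), 1700030K09Rik (0.96) and Sfrp1 (0.98). In skin, the gene most like Lhx2 over 9 arrays was Satb1 (0.97), and that most like Scn7a was Gpr179 (0.94). These are descriptions over 9 arrays that share 3 genotypes, and with so many genes searched a high r arises easily.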

How the data were processed

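Gene expression was measured on 18 Clariom S arrays of mouse skin and pituitary. For each array the authors deposited linear intensities, whole numbers from 4 to 1243875. How these were corrected, summarised and normalized is not given in the sources used here. Array medians were 82 to 96. Intensities were log2 transformed with no pseudocount and not normalized again. Probe sets were named from the platform table, with symbols updated by gene ID from RefSeq (GRCm38.p6), and all 19572 named ones matched. Probe sets without a symbol (2634) were left out.

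Each knockout comparison was fitted with limma 3.58.1 (R 4.3.3) on the 9 arrays of a tissue, with group as the only term and 6 residual degrees of freedom. Tissue comparisons and interactions used all 18 arrays. Tests were two-sided with Benjamini-Hochberg adjustment over 19572 probe sets and were checked on simulated data. Errors are standard errors, and intervals are 95%.

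All members were named whatever their values, together with up to 4 genes past the threshold per list in pituitary and up to 2 in skin. Up to 3 genes most like a member by Pearson's r were kept. Exceptions are marked in the text. Members and lists were chosen with earlier results of these data known. The alternatives were a floor, a filter and a pseudocount of 16, 2 normalizations, a variance trend, other sets of arrays or probe sets, and leaving out each array. The number of arrays limits the precision, and the median standard error was 0.21 in pituitary and 0.26 in skin.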

Additional observations from a re-analysis of the deposited data

Results flagged for a closer look

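The effect of a knockout differed between pituitary and skin for 3 results, each by a test of the difference itself (limma interaction). For Oxt the difference was 2.85 ± 0.32 (SE) with lncKO and 2.68 ± 0.32 with miR-205 KO (adjusted p = 2.77e-05 and 6.5e-05). In skin Oxt was lower in 6 of 6 knockout arrays and passed in both knockouts. In pituitary it was higher in 3 of 3 lncKO arrays, but that change of 0.68 did not pass (limma, adjusted p = 0.208). In miR-205 KO pituitary Oxt overlapped wild type (change 0.09, adjusted p = 0.971). For Avp the difference was 1.35 ± 0.36 with lncKO (adjusted p = 0.0223), where neither the pituitary nor the skin change passed by itself.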

How the results depend on the processing

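Of 142 alternative values for the number of members called, 134 were equal to the main number or within 1.5 times of it and 8 were not. With a variance trend and robust estimation, 1 member passed between lncKO and miR-205 KO pituitary and 2 passed in lncKO skin, and a fit of all 18 arrays gave 3 in lncKO skin, in each case with the added genes among Scn7a, Nkx2-1 and Col25a1. Leaving out 1 array gave 0 to 1 members in lncKO against wild-type pituitary, 1 to 2 in lncKO against wild-type skin, and 1 to 3 for the lncKO effect in pituitary minus skin. Over 985 alternatives of single members, 10 calls were gained and 4 lost, the 4 lost all being Avp in that interaction, and 0 called changes turned in sign. The Oxt change in skin passed in every alternative, between -1.84 and -2.32 in lncKO and between -2.15 and -2.67 in miR-205 KO. No paired analysis was possible because the label numbers run from 1 to 18 and none is shared between groups. Readings under 16 limit what can be said of Nkx2-1.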

Other observations

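In skin, calls in other lists of neural and endocrine genes ran in both directions. Over all probe sets 9.17% fell and 6.21% rose in lncKO skin, and 10.0% fell and 6.79% rose in miR-205 KO skin. Calls were thus common in any list there, and the small counts below are not read as a result about these lists. Of 5 prohormone processing genes measured, 1 fell and 0 rose in lncKO, and 1 fell and 1 rose in miR-205 KO. Pcsk1, a prohormone convertase gene, read 18 to 30 in wild type and 8 to 10 in the 6 knockout arrays, where it lies under 16, and passed as lower in both (limma, adjusted p = 0.00337 and 0.00407). Of 8 hypothalamic neuron genes, 1 rose and 1 fell in each knockout. Crh, the corticotropin releasing hormone gene, rose by 0.86 and 1.00 (SE 0.24 each, adjusted p = 0.0299 and 0.0148), from 20 to 36 in wild type to 43 to 58, while Hcrt passed as lower in lncKO and Npy in miR-205 KO. Of 11 transcription factors of the hypothalamus and infundibulum, 1 fell in lncKO, and 2 fell and 1 rose in miR-205 KO. Sox2 read 44 to 64 in wild type and 14 to 28 in the knockouts, and fell by 1.60 and fell by 1.25 (SE 0.24 each, adjusted p = 0.00144 and 0.00547). Of 10 further pituicyte genes, 2 fell in lncKO, and 1 fell and 1 rose in miR-205 KO. Nes, which encodes nestin, read 62 to 95 in wild type and 25 to 41 in the knockouts, and fell by 1.13 and fell by 0.92 (SE 0.25 each, adjusted p = 0.0103 and 0.0242).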
